A study of Homo sapiens with 12 samples.

Results

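The 57 genes described here carry a cell through mitosis. They encode the cyclins and kinases that start it, the motors and microtubule-binding proteins that build the spindle, the kinetochore and checkpoint proteins that attach and survey chromosomes, the condensins that compact them, and the enzymes that trigger their separation and the splitting of the cell. The genes were chosen by symbol, with earlier results of these data known, so shares of all tested genes stand beside their counts as a description. All 57 were found among the 11963 genes named on the arrays and among the 6821 bright enough to be tested. Total RNA was measured on 12 expression arrays from cultures of LNCaP, an established prostate cancer cell line that responds to androgen. The cells had been transfected with miR-130a, miR-203 or miR-205, with a scramble microRNA as the control transfection, and each of the 4 groups holds 3 arrays labelled as biological replicates. All 4 groups therefore share the transfection itself. The time between transfection and harvest is not given in the sources used here, and 1 cell line stands for every group.

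Before a cell divides, cyclin B binds the kinase CDK1, CDC25 phosphatases switch the pair on, and the nuclear envelope breaks down. Microtubules then capture chromosomes at their kinetochores, and the spindle checkpoint holds back the anaphase-promoting complex until every chromosome is attached. Most transcripts of this programme accumulate late in the cell cycle. The factors FOXM1 and B-MYB and the DREAM complex, which binds promoter elements named CHR (cell cycle genes homology region), are known to control many of them. A microRNA lowers its targets through pairing of its seed, bases 2 to 8, with sites in their messenger RNAs. In RNA from whole cultures, fewer cells in mitosis and less of these transcripts per cell cannot be told apart.

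The mature microRNAs are shown because the arrays compare cells that received them, with the seed in capitals. The labels do not say which arm was transfected, so the arm that RefSeq (GRCh38.p14) lists for these names is printed.
hsa-miR-203a-3p, chr14:104117469-104117490, plus strand: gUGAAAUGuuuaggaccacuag
hsa-miR-205-5p, chr1:209432166-209432187, plus strand: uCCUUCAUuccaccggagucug
The 2 seeds differ. The sequence of miR-130a is not shown. The next 9 stretches come from promoters of members, the 80 bases that end just before the RefSeq transcript start (GRCh38.p14), read 5′ to 3′ on the strand of the gene. Capitals mark the letters of CHR (TTTGAA, or TTCAAA on the other strand) and of the CCAAT box (CCAAT, or ATTGG on the other strand). The first 6 hold CHR letters. KIF20A, CCNB1 and CKAP2 are shown beside them as members with no CHR letters in the window, and CKAP2 has neither motif.
CDC20, chr1:43358901-43358980, plus strand: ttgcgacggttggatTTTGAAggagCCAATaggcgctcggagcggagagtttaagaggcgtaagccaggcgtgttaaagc
CCNB2, chr15:59105066-59105145, plus strand: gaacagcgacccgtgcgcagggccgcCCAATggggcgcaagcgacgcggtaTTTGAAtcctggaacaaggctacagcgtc
PLK1, chr16:23678809-23678888, plus strand: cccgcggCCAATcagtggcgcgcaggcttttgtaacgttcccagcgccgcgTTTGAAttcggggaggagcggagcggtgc
BUB1B, chr15:40160989-40161068, plus strand: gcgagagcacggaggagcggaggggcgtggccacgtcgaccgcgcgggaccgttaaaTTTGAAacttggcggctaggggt
KIF11, chr10:92593050-92593129, plus strand: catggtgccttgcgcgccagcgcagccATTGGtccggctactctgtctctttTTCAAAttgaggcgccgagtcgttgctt
MKI67, chr10:128126424-128126503, minus strand: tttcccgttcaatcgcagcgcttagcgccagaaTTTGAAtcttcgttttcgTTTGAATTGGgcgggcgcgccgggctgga
KIF20A, chr5:138179032-138179111, plus strand: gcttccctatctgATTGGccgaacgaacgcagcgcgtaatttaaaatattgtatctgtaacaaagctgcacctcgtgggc
CCNB1, chr5:69167070-69167149, plus strand: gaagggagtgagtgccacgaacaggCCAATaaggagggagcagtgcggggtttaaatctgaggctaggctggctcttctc
CKAP2, chr13:52455908-52455987, plus strand: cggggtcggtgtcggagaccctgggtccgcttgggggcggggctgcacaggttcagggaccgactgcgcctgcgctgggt
In MKI67 the letters of the second CHR match run into those of the CCAAT match.

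RefSeq promoter windows, 250 bases before to 50 after a transcript start, were at hand for 48 members. The others are AURKA, TTK, CENPM, UBE2C, TPX2, TROAP, RACGAP1, BIRC5 and FOXM1. CHR letters stood on 1 strand or the other in 33 of the 48 members (68.8%), against 13.4% of 5737 tested genes with a window and 18.2% of 27305 gene symbols. In 31 members a match lay between 100 bases before and 50 after the start. CCAAT letters were in 36 members (75%), against 45.8% of tested genes, and 25 members held both in 1 window, with overlapping letters in 2 of them (MKI67 and CDCA8). The shares of tested genes with a CHR match that near the start, or with both motifs, were not counted. The B-MYB letters TAACGG were in 6 members (12.5%), against 5.54% of tested genes. The E2F-like letters TTTCCCGC were in 1 member (2.08%), against 3.63%, and TTTGGCGC in 2 (4.17%), against 1.41%. A match is a description of the letters, and its part in the expression values was not tested. The median difference from scramble was 0.54 (log2) in miR-130a cultures for the 33 members with CHR letters and 0.36 for the 15 without, and the 2 sets spanned overlapping ranges. In miR-203 cultures the medians were -0.48 with and -0.57 without, and in miR-205 cultures -1.07 with and -1.20 without.

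**Figure D1:**
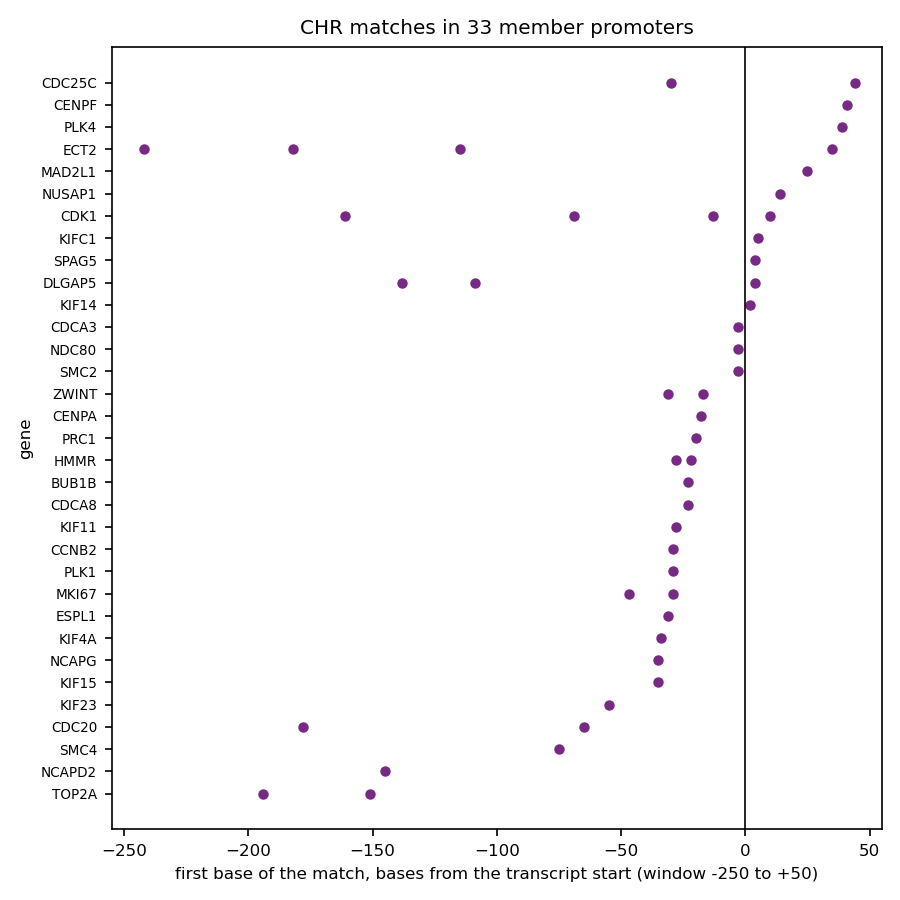
CHR matches in the 33 member promoters that hold them. The x axis gives the first base of each match in bases from the transcript start, in a window of 250 bases before to 50 after, and each row is a gene. Most points lie near the start, and 31 of the 33 genes have a match between 100 bases before and 50 after it.

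All values are the deposited log2 values of 1 probe set per gene, the brightest over the 12 arrays. A difference is the mean of the first group minus the mean of the second on that scale, so 1 unit is a 2-fold change, and the error after ± is its standard error (SE) in a limma fit over all tested genes, with 3 arrays in each group. A gene passed when its p, adjusted by Benjamini-Hochberg over the 6821 genes, was under 0.05. The arrays share 1 scale, with medians between 2.76 and 2.78 over all probe sets. Of the 57 members, 51 lay above the array median on all 12 arrays. The others were KIF15 on 6 arrays, KIFC1 on 10, and KIF11, KIF14, PLK1 and NCAPH on 11. In 3 members arrays of a group had equal values, and in 22 they had values within 0.01 of each other. Some values also recurred between groups, as for PLK4 (3.48) and NCAPH (4.07) on miR-203 replicate 2 and scramble replicate 2. The cause of these repeats was not tested. All 6 markers of luminal prostate cells that were measured, among them KLK3 and KRT8, lay above the median on all 12 arrays, while the basal keratins KRT5 and KRT14 and the fibroblast markers DCN, COL1A2 and LUM did so on 0. The leukocyte markers PTPRC and CD53 and the endothelial markers PECAM1 and CDH5 were also above it on 0 arrays, and LCP1, listed with the leukocyte genes, on 12. The summed level of the luminal markers was 50.3 to 50.6 on the miR-130a arrays, 45.6 to 46.5 on the miR-203 arrays and 51.0 to 51.6 on the miR-205 arrays, against 50.1 to 50.6 on the scramble arrays. It was thus lowest in the miR-203 cultures. There KLK3, KLK2 and TMPRSS2 had means of 10.21, 7.22 and 6.87, against 11.45, 8.82 and 8.17 in scramble cultures. KRT8 and KRT18 differed less, at 7.45 and 9.94 against 7.69 and 10.20, and FOLH1 was higher, at 4.36 against 4.13. The part of these markers in the results on the members was not tested. Signal at the 3′ end of ACTB exceeded that at the 5′ end by 2.18 to 2.33 on the miR-130a arrays, 2.18 to 2.54 on the miR-203 arrays and 2.21 to 2.46 on the miR-205 arrays, against 2.30 to 2.66 on the scramble arrays, so this sign of RNA quality overlapped between groups. For GAPDH the same excess was 0.722 to 0.737 on the miR-130a arrays, 0.740 to 0.798 on the miR-203 arrays and 0.601 to 0.732 on the miR-205 arrays, inside the scramble range of 0.563 to 0.902.

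Single arrays moved the members together. The median member stood at 5.78, 5.85 and 5.86 on the miR-130a arrays, at 4.54, 5.10 and 4.76 on the miR-203 arrays and at 3.83, 4.41 and 4.38 on the miR-205 arrays, against 5.46, 5.44 and 5.31 on the scramble arrays. The 4 groups did not overlap in this value. On miR-203 replicate 1, 52 of the 57 members lay below their own group mean, on miR-205 replicate 1 it was 47, and on scramble replicate 3 it was 49. On miR-203 replicate 2, only 2 lay below it. The share of all tested genes above their group mean was 53.7% on miR-203 replicate 1 and 42.5% on miR-205 replicate 1. It was 43.7% on scramble replicate 3 and 51.6% on miR-203 replicate 2. The median spread within groups (residual SD) was 0.235 for the members and 0.124 for all tested genes. Replicate arrays thus differed more in these genes than in most others.

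**Figure D2:**
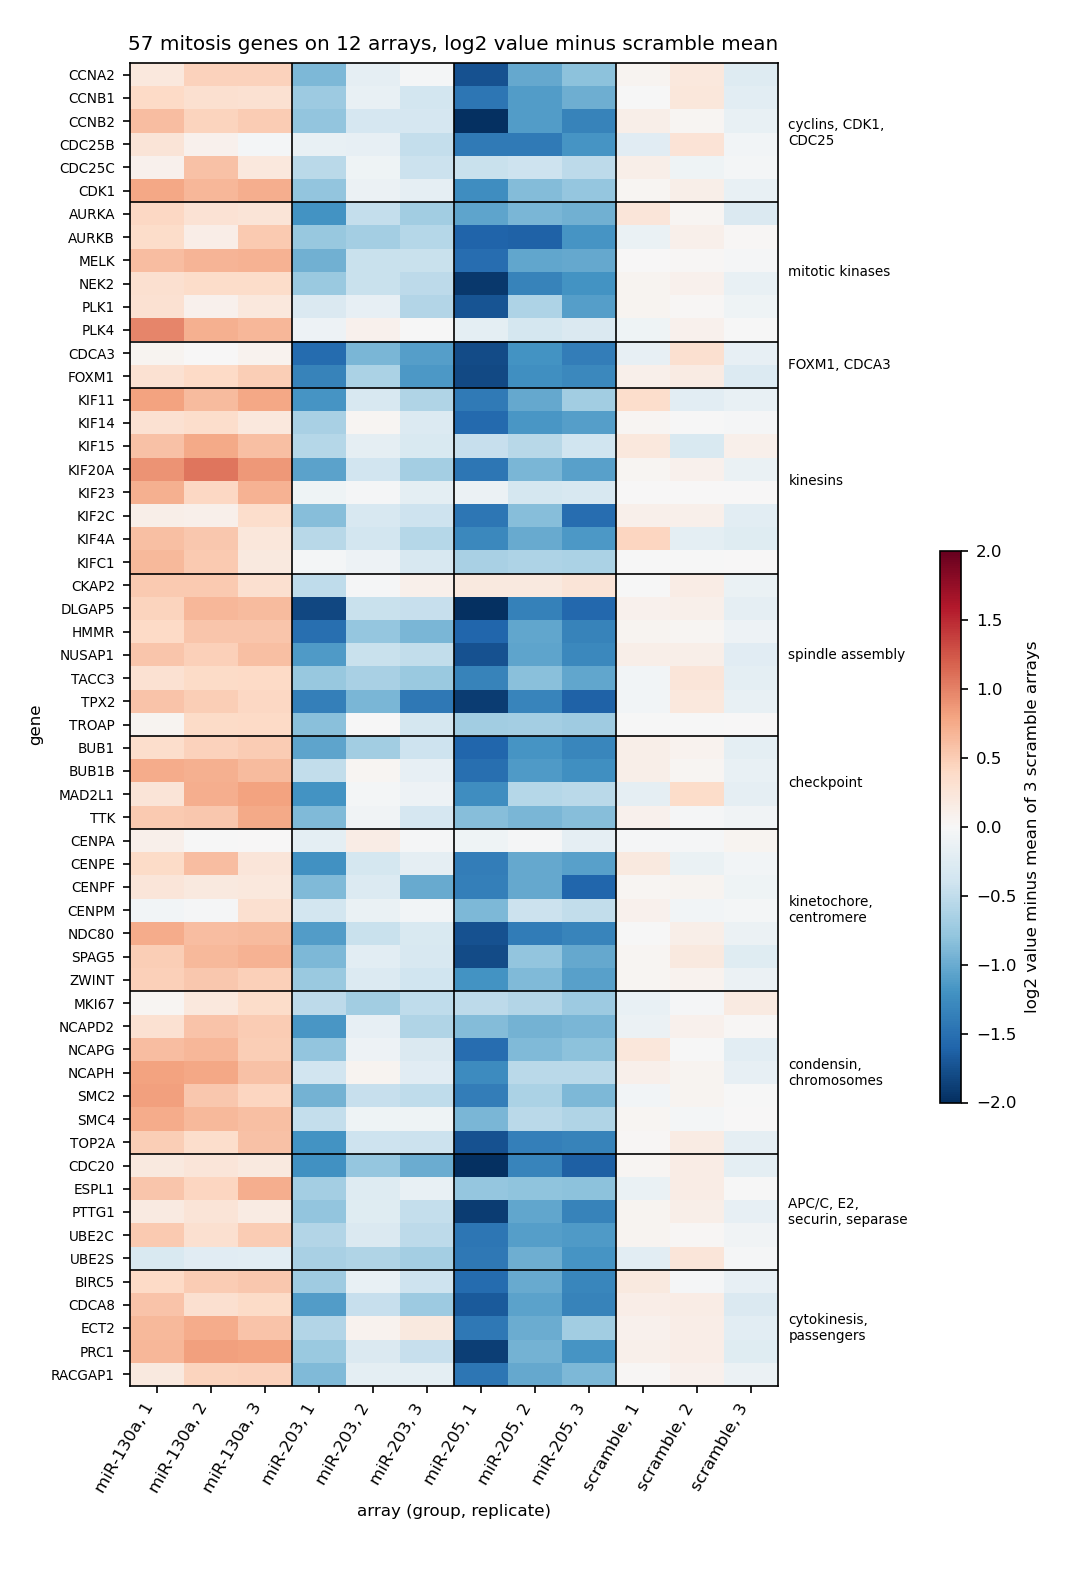
Log2 value of each of the 57 members on each of the 12 arrays, minus the mean of the 3 scramble arrays. Columns are arrays grouped by microRNA, rows are genes grouped by role, red is higher and blue is lower than scramble, and colours are capped at 2 in either direction. The miR-130a columns are mostly red, the miR-205 columns are dark blue apart from CKAP2 and a few pale rows, and replicate 1 is the bluest column of the miR-203 and miR-205 groups.

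Nearly the whole set was lower in miR-205 cultures. Against scramble, 53 of 57 members fell and 0 rose at this threshold, where 14.8% of all tested genes fell and 11.3% rose. At an unadjusted p under 0.05 in the same limma fit, 0 members rose and 55 fell. The median member difference was -1.16, against -0.0038 for all tested genes, and 38 members fell at least 2-fold. Shares of all tested genes that fell, rose, or were higher or lower are at the adjusted threshold, here and below. The shares at an unadjusted p under 0.05, and those of genes that changed at least 2-fold, were not counted. The largest decreases were in CDC20, the activator of the anaphase-promoting complex, at -1.74 ± 0.19 (adjusted p = 2.5e-05), which is 3.33 times more signal in scramble cultures, in DLGAP5, a spindle microtubule-binding protein, at -1.70 ± 0.30 (adjusted p = 0.00109), in TPX2, which activates Aurora A on the spindle, at -1.61 ± 0.16 (adjusted p = 1.15e-05), and in CCNB2, a B-type cyclin, at -1.55 ± 0.22 (adjusted p = 0.000185). For 55 members every miR-205 array lay below every scramble array (21% of tested genes). The 4 members that did not pass were the checkpoint protein MAD2L1 at -0.79 ± 0.29 (adjusted p = 0.0618), the kinesin KIF23 at -0.26 ± 0.093 (adjusted p = 0.0526), the centromeric histone CENPA at -0.10 ± 0.087 (adjusted p = 0.454) and CKAP2 at 0.22 ± 0.13 (adjusted p = 0.269). The count of decreases was 51 to 54 when any 1 array was left out. Most members were tested under 24 alternative settings, while KIF15, KIFC1, PLK4 and CDC25B were tested under 23 and KIF23 and CENPA under 22, since the setting without genes with equal values, the stricter filter or both leave them out. Apart from KIF15 (call lost under 5 of 23), CDC25C (5 of 24) and PLK4 (12 of 23), the members that fell did so under every alternative in which they were tested.

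Members were also lower in miR-203 cultures. Against scramble, 33 members fell and 0 rose (0 rose and 40 fell at an unadjusted p under 0.05), where 18.9% of all tested genes fell and 17.3% rose. The median member difference was -0.49, against 0.0061 for all tested genes. Only 4 members fell at least 2-fold: TPX2 at -1.24 ± 0.16 (adjusted p = 5.77e-05), CDCA3, which helps trigger mitotic entry, at -1.19 ± 0.18 (adjusted p = 0.000238), HMMR, a spindle assembly factor, at -1.07 ± 0.17 (adjusted p = 0.000315), and the transcription factor FOXM1 at -1.04 ± 0.19 (adjusted p = 0.000844). In 39 members every miR-203 array lay below every scramble array (22.6% of tested genes). The smallest difference was that of PLK4, the kinase of centriole duplication, at -0.0056 ± 0.092 (adjusted p = 0.971). Without miR-203 replicate 1, the array on which 52 members were below their group mean, 21 members fell. Calls held under every alternative that tested the gene for 15 members, namely KIF20A, AURKA, AURKB, MELK, BUB1, ZWINT, CDC20, UBE2C, UBE2S, TPX2, HMMR, TACC3, CDCA8, FOXM1 and CDCA3.

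In miR-130a cultures members were higher. Against scramble, 25 members rose and 0 fell (37 rose and 0 fell at an unadjusted p under 0.05), where 12% of all tested genes rose and 11.6% fell. The median member difference was 0.46, against -0.0085 for all tested genes, and no member reached a 2-fold change. The largest increase was in KIF20A, the kinesin that carries the chromosomal passenger complex to the central spindle, at 0.94 ± 0.16 (adjusted p = 0.000999), or 1.92-fold. PLK4 followed at 0.79 ± 0.092 (adjusted p = 5.12e-05), then PRC1, which bundles the central spindle, at 0.76 ± 0.20 (adjusted p = 0.0144), KIF11, the motor that pushes spindle poles apart, at 0.74 ± 0.22 (adjusted p = 0.0268), the condensin subunit NCAPH at 0.72 ± 0.17 (adjusted p = 0.00908) and CDK1 at 0.72 ± 0.16 (adjusted p = 0.00631). In 47 members every miR-130a array lay above every scramble array (19.3% of tested genes). UBE2S was the 1 member with a negative difference, -0.25 ± 0.12 (adjusted p = 0.161). The count of increases was 15 without miR-130a replicate 1, 16 without miR-130a replicate 2 and 14 without scramble replicate 3. The 12 members that rose under every alternative that tested them were KIF15, KIF20A, KIF23, KIFC1, CDK1, PLK4, MELK, BUB1B, ZWINT, SMC4, UBE2C and ESPL1.

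The 3 comparisons share the scramble arrays, so their values are set side by side and not correlated. Over the 4 groups, 56 of 57 members differed by the moderated F-test, against 60.8% of all tested genes. The exception was CENPA, with an adjusted p of 0.569 in that test and values near the array medians. The highest group mean was in miR-130a cultures for 56 members (23.8% of tested genes), UBE2S excepted. The lowest was in miR-205 cultures for 56 members (26.7% of tested genes), CKAP2 excepted.

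**Figure D3:**
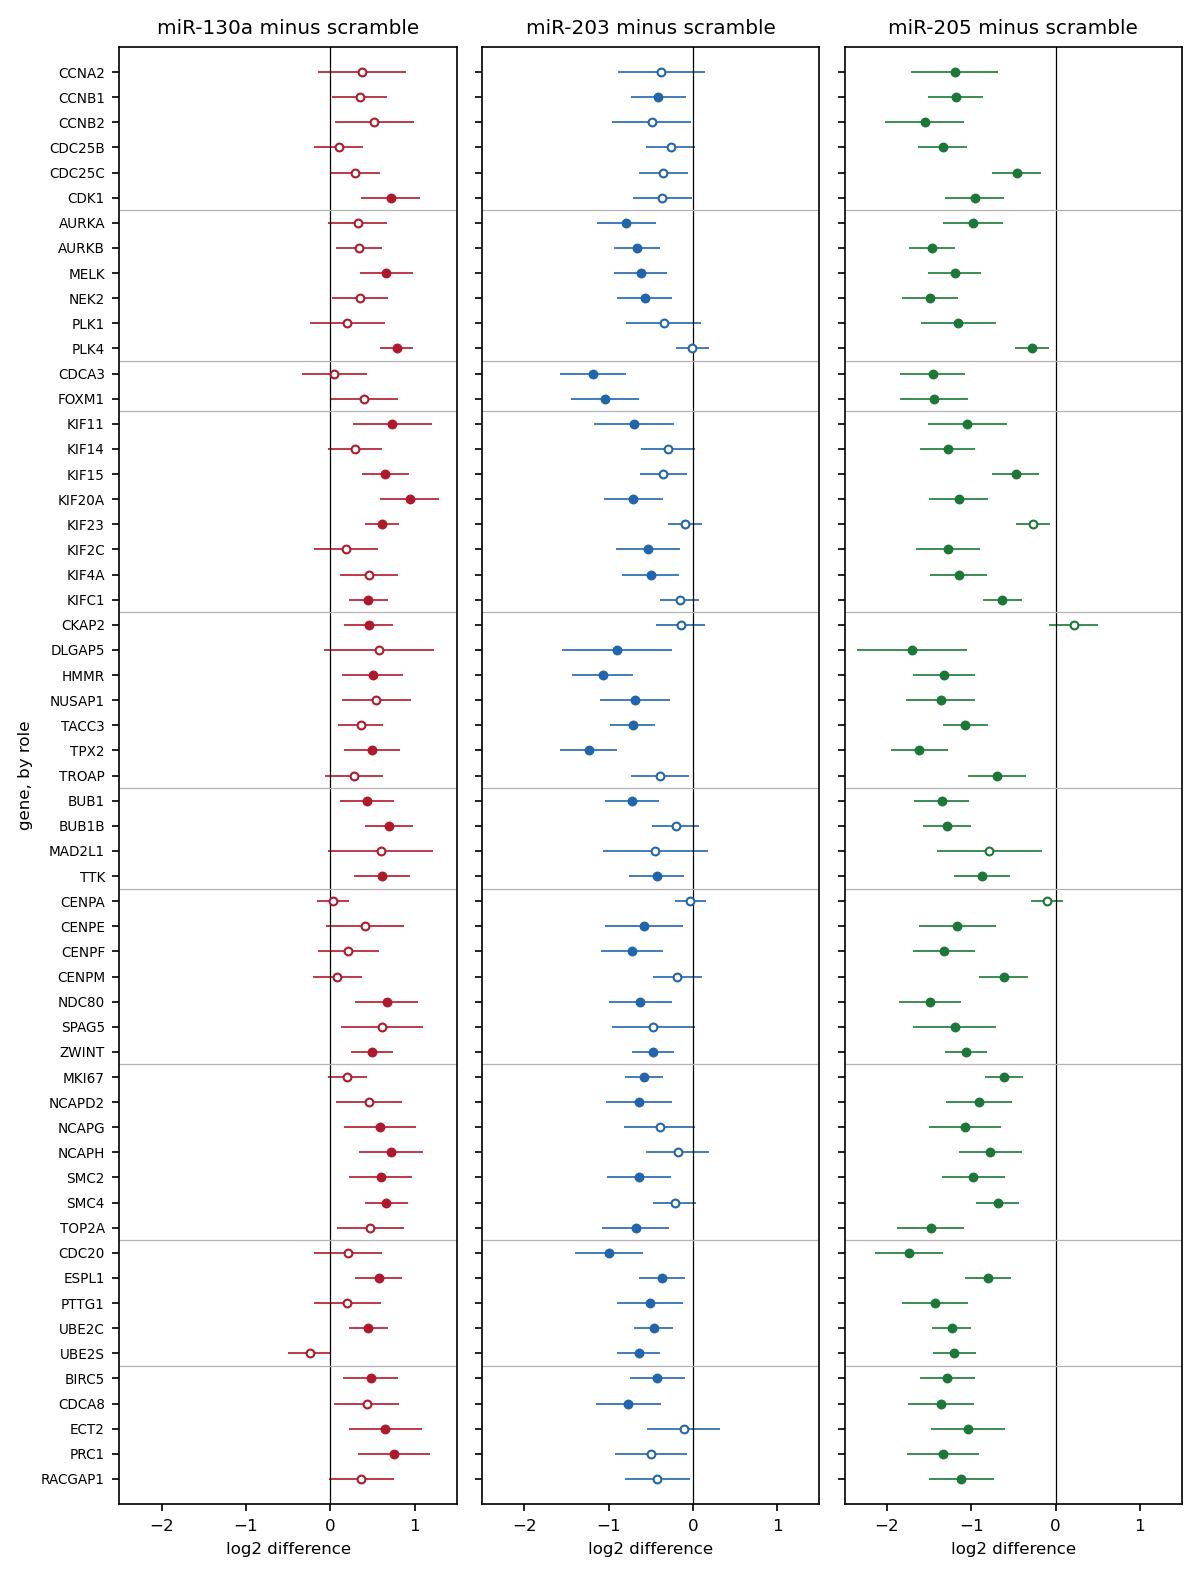
Log2 difference from scramble for each member in miR-130a (left), miR-203 (middle) and miR-205 (right) cultures. Points are differences of means of 3 arrays each, lines are 95% intervals, filled points passed the threshold, and rows are genes grouped by role in the order of the map of values. Filled points number 25 on the left, all above 0, 33 in the middle and 53 on the right, all below 0.

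The 6 genes for cyclins, CDK1 and its phosphatases fell in miR-205 cultures, with a median of -1.19 and a background of 14.8%. CCNB1 alone of the 6 fell in miR-203 cultures and CDK1 alone rose in miR-130a cultures, counts near the backgrounds of 18.9% and 12%. CDK1 gave 9.71, 9.60 and 9.67 on the miR-130a arrays, 8.14, 8.82 and 8.77 on the miR-203 arrays and 7.70, 8.08 and 8.16 on the miR-205 arrays, against 8.97, 9.05 and 8.80 on the scramble arrays. The miR-130a values stood above and the miR-205 values below every scramble array, and 1 miR-203 array was as low as the miR-205 arrays. CDK1 fell by 0.96 ± 0.16 (adjusted p = 0.000777) in miR-205 cultures, rose by 0.72 ± 0.16 (adjusted p = 0.00631) in miR-130a cultures, and its miR-203 difference was -0.36 ± 0.16 (adjusted p = 0.0968). CCNB2 gave 7.34, 7.17 and 7.23 on the miR-130a arrays, 5.93, 6.39 and 6.39 on the miR-203 arrays and 4.53, 5.61 and 5.38 on the miR-205 arrays, against 6.85, 6.76 and 6.58 on the scramble arrays. These groups did not overlap, in the order miR-130a, scramble, miR-203 and miR-205. CCNB2 fell by 1.55 ± 0.22 (adjusted p = 0.000185) in miR-205 cultures, and its differences of 0.52 ± 0.22 (adjusted p = 0.103) in miR-130a and -0.49 ± 0.22 (adjusted p = 0.0947) in miR-203 cultures did not pass. CCNB1, the main partner of CDK1, fell in miR-205 cultures at -1.18 ± 0.15 (adjusted p = 9.32e-05) and in miR-203 cultures at -0.41 ± 0.15 (adjusted p = 0.0476), and the cyclin CCNA2 fell in miR-205 cultures at -1.19 ± 0.24 (adjusted p = 0.00246). CDC25B and CDC25C, phosphatases that activate CDK1, differed in size. CDC25B gave 5.13, 4.96 and 4.84 on the miR-130a arrays, 4.74, 4.72 and 4.40 on the miR-203 arrays and 3.46, 3.46 and 3.70 on the miR-205 arrays, against 4.66, 5.16 and 4.82 on the scramble arrays. The miR-205 arrays, 2 of them with equal values, stood apart, at -1.34 ± 0.13 (adjusted p = 1.54e-05) from scramble. CDC25C fell there by 0.46 ± 0.13 (adjusted p = 0.0223), the smallest decrease of the group. Other probe sets gave further decreases in miR-203 cultures in a fit over single probe sets: the second of CCNA2 at -0.90 ± 0.16 (adjusted p = 0.00106) and 1 of 2 further ones of CDK1 at -0.52 ± 0.17 (adjusted p = 0.0326). Of the calls against scramble, those lost under some alternatives were in miR-203 cultures of CCNB1 (13 of 24) and in miR-205 cultures of CDC25C (5 of 24), with the number of alternatives in brackets.

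Among the 6 mitotic kinases, 6 fell in miR-205 cultures (14.8% of all tested genes) and 4 in miR-203 cultures (18.9%). In miR-130a cultures 2 rose (12%). PLK1 gave 4.51, 4.29 and 4.41 on the miR-130a arrays, 3.91, 4.03 and 3.62 on the miR-203 arrays and 2.47, 3.58 and 3.10 on the miR-205 arrays, against 4.26, 4.23 and 4.12 on the scramble arrays. PLK1, which acts from entry to cytokinesis, kept 4 groups apart, although miR-205 replicate 1 lay far below the other miR-205 arrays. It fell by 1.15 ± 0.21 (adjusted p = 0.00115) in miR-205 cultures. Its differences of -0.35 ± 0.21 (adjusted p = 0.209) in miR-203 and 0.20 ± 0.21 (adjusted p = 0.525) in miR-130a cultures did not pass. AURKA gave 5.64, 5.51 and 5.47 on the miR-130a arrays, 4.02, 4.74 and 4.52 on the miR-203 arrays and 4.15, 4.31 and 4.25 on the miR-205 arrays, against 5.46, 5.26 and 4.93 on the scramble arrays. AURKA, the Aurora kinase of centrosomes and spindle poles, was lower on every miR-203 and miR-205 array than on any scramble array. The decrease was -0.98 ± 0.16 (adjusted p = 0.000679) in miR-205 and -0.79 ± 0.16 (adjusted p = 0.00215) in miR-203 cultures. AURKB, the kinase of the chromosomal passenger complex, fell in miR-205 cultures at -1.46 ± 0.13 (adjusted p = 4.94e-06) and in miR-203 cultures at -0.67 ± 0.13 (adjusted p = 0.00121). NEK2, which separates centrosomes, fell in miR-205 cultures at -1.49 ± 0.15 (adjusted p = 1.8e-05) and in miR-203 cultures at -0.57 ± 0.15 (adjusted p = 0.0103). MELK, a kinase abundant in dividing cells, changed in all comparisons with scramble, with differences of 0.66 ± 0.14 (adjusted p = 0.00511) in miR-130a, -0.62 ± 0.14 (adjusted p = 0.00485) in miR-203 and -1.20 ± 0.14 (adjusted p = 6.16e-05) in miR-205 cultures. PLK4 gave 4.37, 4.10 and 4.06 on the miR-130a arrays, 3.29, 3.48 and 3.38 on the miR-203 arrays and 3.20, 3.04 and 3.10 on the miR-205 arrays, against 3.31, 3.48 and 3.38 on the scramble arrays. PLK4 thus stood apart on the miR-130a arrays, while its miR-203 values lay among those of scramble, and its miR-205 decrease of -0.28 ± 0.092 (adjusted p = 0.0421) was lost under 12 of 23 alternatives. The miR-203 decrease of NEK2 was lost under 1 of 24.

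FOXM1, a transcription factor that activates genes of this programme, and CDCA3 fell in both miR-203 and miR-205 cultures. FOXM1 gave 5.09, 5.19 and 5.28 on the miR-130a arrays, 3.44, 4.15 and 3.63 on the miR-203 arrays and 2.98, 3.55 and 3.50 on the miR-205 arrays, against 4.89, 4.96 and 4.51 on the scramble arrays. Every miR-203 and miR-205 array was below every scramble array, and the miR-203 and miR-205 values overlapped. FOXM1 fell by 1.44 ± 0.19 (adjusted p = 0.000104) in miR-205 and by 1.04 ± 0.19 (adjusted p = 0.000844) in miR-203 cultures, and its miR-130a difference was 0.40 ± 0.19 (adjusted p = 0.142). CDCA3 gave 5.84, 5.81 and 5.87 on the miR-130a arrays, 4.24, 4.88 and 4.69 on the miR-203 arrays and 3.998, 4.60 and 4.41 on the miR-205 arrays, against 5.63, 6.12 and 5.63 on the scramble arrays. CDCA3 fell by 1.46 ± 0.18 (adjusted p = 7.16e-05) in miR-205 cultures, and the miR-130a values lay among those of scramble, with a difference of 0.048 ± 0.18 (adjusted p = 0.886).

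Kinesins are the motors that sort spindle microtubules. Of the 8 named for this family, 7 fell in miR-205 cultures (median -1.10), 4 fell in miR-203 cultures (median -0.43) and 5 rose in miR-130a cultures (median 0.53). The shares of all tested genes were 14.8%, 18.9% and 12% in the same order. KIF20A gave 6.11, 6.28 and 6.07 on the miR-130a arrays, 4.14, 4.83 and 4.53 on the miR-203 arrays and 3.76, 4.30 and 4.12 on the miR-205 arrays, against 5.24, 5.30 and 5.08 on the scramble arrays. The miR-130a arrays stood highest and the miR-203 and miR-205 arrays below scramble. KIF20A fell by 1.15 ± 0.16 (adjusted p = 0.000203) in miR-205 and by 0.71 ± 0.16 (adjusted p = 0.00435) in miR-203 cultures. KIF11 gave 4.86, 4.69 and 4.83 on the miR-130a arrays, 2.88, 3.74 and 3.46 on the miR-203 arrays and 2.65, 3.03 and 3.36 on the miR-205 arrays, against 4.42, 3.85 and 3.91 on the scramble arrays. Here too the miR-130a values were above and the miR-203 and miR-205 values below every scramble array, although miR-203 replicate 1 was as low as the miR-205 arrays. KIF11 fell by 1.05 ± 0.22 (adjusted p = 0.00323) in miR-205 and by 0.70 ± 0.22 (adjusted p = 0.0238) in miR-203 cultures. KIF14, needed for cytokinesis, fell in miR-205 cultures at -1.28 ± 0.15 (adjusted p = 4.78e-05), and so did KIF2C, a microtubule depolymerase of the centromere, at -1.28 ± 0.18 (adjusted p = 0.000164), and the chromosome-bound KIF4A at -1.15 ± 0.16 (adjusted p = 0.00016). KIFC1, which clusters centrosomes, rose in miR-130a cultures at 0.45 ± 0.11 (adjusted p = 0.00793) and fell in miR-205 cultures at -0.63 ± 0.11 (adjusted p = 0.000752). KIF23, the motor of centralspindlin, rose in miR-130a cultures at 0.61 ± 0.093 (adjusted p = 0.000442) and had 3.45, 3.21 and 3.25 on the miR-205 arrays, against 3.57, 3.57 and 3.57 on the scramble arrays, all 3 of them equal. KIF15, which assists KIF11, was not above the array median on any miR-205 array, so it is bounded there: scramble cultures had at least 1.19-fold more signal (adjusted p = 0.017) and miR-130a cultures at least 1.87-fold more (adjusted p = 2.19e-05). Calls against scramble lost under some alternatives were in miR-130a cultures of KIF11 (6 of 24), in miR-203 cultures of KIF11 (6 of 24), KIF2C (7 of 24) and KIF4A (7 of 24) and in miR-205 cultures of KIF15 (5 of 23).

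Proteins that assemble or bind the spindle held some of the largest decreases and an exception in direction. Of 7 genes, 6 fell in miR-205 cultures (14.8% of all tested genes) and 5 in miR-203 cultures (18.9%), and 3 rose in miR-130a cultures (12%). TPX2 gave 6.80, 6.71 and 6.63 on the miR-130a arrays, 4.85, 5.30 and 4.80 on the miR-203 arrays and 4.31, 4.89 and 4.61 on the miR-205 arrays, against 6.17, 6.42 and 6.07 on the scramble arrays. Every miR-203 and miR-205 array lay below every scramble array, and the miR-203 and miR-205 values overlapped. TPX2 rose by 0.49 ± 0.16 (adjusted p = 0.0356) in miR-130a cultures. DLGAP5 gave 5.99, 6.22 and 6.19 on the miR-130a arrays, 3.74, 5.12 and 5.10 on the miR-203 arrays and 3.38, 4.20 and 3.98 on the miR-205 arrays, against 5.63, 5.66 and 5.38 on the scramble arrays. DLGAP5 varied widely on the miR-203 and miR-205 arrays, with replicate 1 the lowest of each, and its decreases were -1.70 ± 0.30 (adjusted p = 0.00109) in miR-205 and -0.90 ± 0.30 (adjusted p = 0.032) in miR-203 cultures. HMMR fell in miR-205 cultures at -1.32 ± 0.17 (adjusted p = 9.31e-05), NUSAP1, which bundles microtubules near chromosomes, at -1.36 ± 0.19 (adjusted p = 0.000179), and TACC3, which stabilises kinetochore fibres, at -1.07 ± 0.12 (adjusted p = 4.32e-05). NUSAP1 and TACC3 also fell in miR-203 cultures, at -0.69 ± 0.19 (adjusted p = 0.0125) and -0.71 ± 0.12 (adjusted p = 0.000688). TROAP fell in miR-205 cultures at -0.69 ± 0.16 (adjusted p = 0.00609). CKAP2 gave 6.51, 6.50 and 6.30 on the miR-130a arrays, 5.47, 5.96 and 6.08 on the miR-203 arrays and 6.17, 6.17 and 6.24 on the miR-205 arrays, against 5.97, 6.13 and 5.84 on the scramble arrays. CKAP2, a spindle pole protein, was the 1 member whose miR-205 arrays all lay above the scramble arrays, with a difference of 0.22 ± 0.13 (adjusted p = 0.269) that did not pass. It rose in miR-130a cultures at 0.46 ± 0.13 (adjusted p = 0.0253). Some alternatives ended the calls in miR-130a cultures of TPX2 (6 of 24), CKAP2 (5 of 24) and HMMR (12 of 24) and in miR-203 cultures of DLGAP5 (6 of 24) and NUSAP1 (2 of 24).

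**Figure D4:**
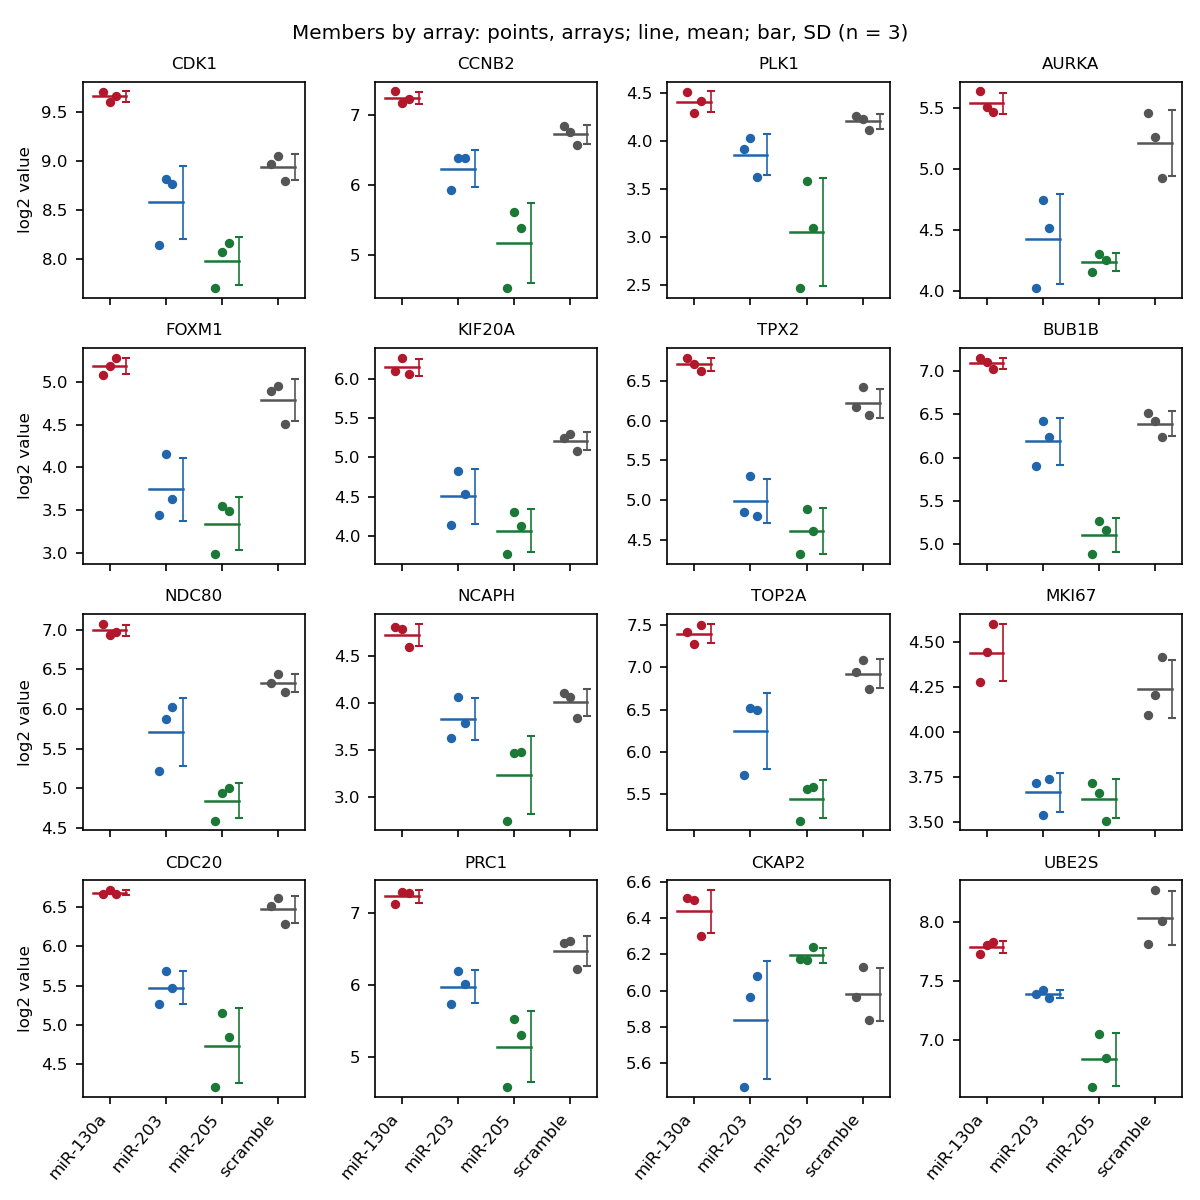
Log2 values of 16 members by group. Points are single arrays, horizontal lines are means and bars are SD (n = 3), with miR-130a, miR-203 and miR-205 left of scramble and a separate y axis for each gene that does not start at 0. In most panels the order is miR-130a, scramble, miR-203 and miR-205 from high to low, while CKAP2 is lowest in miR-203 cultures and UBE2S is highest in scramble cultures.

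Kinetochore and centromere genes did not all pass. NDC80, ZWINT, CENPE, CENPF, CENPM and SPAG5 fell in miR-205 cultures, NDC80, ZWINT, CENPE and CENPF also in miR-203 cultures, and NDC80 and ZWINT rose in miR-130a cultures. The same calls held for 14.8%, 18.9% and 12% of all tested genes. NDC80 gave 7.08, 6.94 and 6.97 on the miR-130a arrays, 5.21, 5.88 and 6.02 on the miR-203 arrays and 4.59, 4.93 and 5.005 on the miR-205 arrays, against 6.32, 6.45 and 6.22 on the scramble arrays. The groups did not overlap, in the order miR-130a, scramble, miR-203 and miR-205. NDC80, which binds the microtubule end, had differences of 0.67 ± 0.17 (adjusted p = 0.0132) in miR-130a, -0.63 ± 0.17 (adjusted p = 0.0123) in miR-203 and -1.49 ± 0.17 (adjusted p = 4.32e-05) in miR-205 cultures. ZWINT, an outer kinetochore protein, showed the same order, with differences of 0.49 ± 0.11 (adjusted p = 0.00755) in miR-130a, -0.48 ± 0.11 (adjusted p = 0.00594) in miR-203 and -1.06 ± 0.11 (adjusted p = 2.59e-05) in miR-205 cultures. CENPE, the kinesin of the kinetochore, fell in miR-205 cultures at -1.16 ± 0.21 (adjusted p = 0.00136), CENPF at -1.32 ± 0.17 (adjusted p = 9.65e-05) and SPAG5, known as astrin, at -1.20 ± 0.23 (adjusted p = 0.0017). CENPM, of the inner kinetochore, fell there by 0.61 ± 0.13 (adjusted p = 0.00457). CENPA gave 3.17, 3.06 and 3.08 on the miR-130a arrays, 2.88, 3.22 and 3.04 on the miR-203 arrays and 2.99, 3.04 and 2.89 on the miR-205 arrays, against 3.04, 3.04 and 3.14 on the scramble arrays. CENPA, the histone that marks centromeres, had overlapping values in every comparison but that of miR-130a with miR-205, and its largest difference, 0.13 ± 0.087 (adjusted p = 0.293) between those groups, did not pass. Calls against scramble lost under some alternatives were in miR-130a cultures of NDC80 (3 of 24) and in miR-203 cultures of NDC80 (2 of 24), CENPE (17 of 24) and CENPF (1 of 24).

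The 4 checkpoint genes, which delay anaphase until chromosomes are attached, included 3 that rose in miR-130a cultures and 3 that fell in miR-205 cultures. Of all tested genes, 12% rose and 14.8% fell there. BUB1B gave 7.14, 7.10 and 7.02 on the miR-130a arrays, 5.90, 6.43 and 6.23 on the miR-203 arrays and 4.89, 5.26 and 5.16 on the miR-205 arrays, against 6.51, 6.42 and 6.24 on the scramble arrays. The miR-205 arrays lay far below all others, while the miR-203 and scramble values overlapped. BUB1B, the kinase-like inhibitor of CDC20, rose by 0.70 ± 0.13 (adjusted p = 0.00188) in miR-130a cultures and fell by 1.29 ± 0.13 (adjusted p = 1.64e-05) in miR-205 cultures, and its miR-203 difference was -0.21 ± 0.13 (adjusted p = 0.242). BUB1, the kinase that recruits it, changed in all 3 comparisons, with 0.44 ± 0.15 (adjusted p = 0.049) in miR-130a, -0.72 ± 0.15 (adjusted p = 0.00222) in miR-203 and -1.35 ± 0.15 (adjusted p = 2.91e-05) in miR-205 cultures. TTK, the kinase that starts checkpoint signalling, had 0.61 ± 0.15 (adjusted p = 0.0113) in miR-130a, -0.43 ± 0.15 (adjusted p = 0.0423) in miR-203 and -0.87 ± 0.15 (adjusted p = 0.00101) in miR-205 cultures. MAD2L1 gave 7.86, 8.32 and 8.41 on the miR-130a arrays, 6.40, 7.55 and 7.50 on the miR-203 arrays and 6.36, 7.02 and 7.05 on the miR-205 arrays, against 7.41, 7.97 and 7.41 on the scramble arrays. MAD2L1 had wide replicate spread, and none of its 3 differences from scramble passed. The miR-130a call of BUB1 was near the threshold and was lost under 14 of 24 alternatives, down to a difference of 0.10 with the mean of its probe sets. The calls of TTK were lost under 2 of 24 in miR-130a and under 16 of 24 in miR-203 cultures.

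All 5 genes of anaphase onset fell in both miR-203 and miR-205 cultures, with medians of -0.50 in miR-203 and -1.23 in miR-205 cultures. In miR-130a cultures 2 rose. The shares of all tested genes were 18.9%, 14.8% and 12% in the same order. CDC20 gave 6.67, 6.72 and 6.67 on the miR-130a arrays, 5.26, 5.69 and 5.47 on the miR-203 arrays and 4.21, 5.15 and 4.84 on the miR-205 arrays, against 6.51, 6.62 and 6.28 on the scramble arrays. The groups did not overlap, and miR-205 replicate 1 was the lowest array. CDC20 fell by 0.99 ± 0.19 (adjusted p = 0.00119) in miR-203 cultures, and its miR-130a difference of 0.21 ± 0.19 (adjusted p = 0.453) did not pass. UBE2C, an E2 enzyme of the anaphase-promoting complex, had 0.45 ± 0.11 (adjusted p = 0.0081) in miR-130a, -0.46 ± 0.11 (adjusted p = 0.00438) in miR-203 and -1.23 ± 0.11 (adjusted p = 5.14e-06) in miR-205 cultures. UBE2S gave 7.73, 7.81 and 7.83 on the miR-130a arrays, 7.39, 7.43 and 7.36 on the miR-203 arrays and 6.60, 7.05 and 6.85 on the miR-205 arrays, against 7.82, 8.27 and 8.01 on the scramble arrays. UBE2S, the E2 that extends ubiquitin chains on the same complex, overlapped between miR-130a and scramble, and fell by 0.64 ± 0.12 (adjusted p = 0.0011) in miR-203 and by 1.20 ± 0.12 (adjusted p = 1.53e-05) in miR-205 cultures. PTTG1, or securin, fell in miR-205 cultures at -1.43 ± 0.18 (adjusted p = 9.27e-05) and in miR-203 cultures at -0.50 ± 0.18 (adjusted p = 0.0446). ESPL1, the protease separase that securin holds back, rose in miR-130a cultures at 0.57 ± 0.13 (adjusted p = 0.00579) and fell in miR-205 cultures at -0.80 ± 0.13 (adjusted p = 0.000493) and in miR-203 cultures at -0.37 ± 0.13 (adjusted p = 0.0388). In miR-203 cultures the call was lost under 11 of 24 alternatives for PTTG1 and 12 of 24 for ESPL1, while CDC20, UBE2C and UBE2S kept theirs under all 24.

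Condensin compacts mitotic chromosomes. Of 7 genes for condensin and chromosome structure, 7 fell in miR-205 cultures (median -0.91), 4 fell in miR-203 cultures (median -0.58) and 4 rose in miR-130a cultures (median 0.59). The shares of all tested genes were 14.8%, 18.9% and 12% in the same order. NCAPH gave 4.81, 4.78 and 4.60 on the miR-130a arrays, 3.63, 4.07 and 3.79 on the miR-203 arrays and 2.75, 3.47 and 3.48 on the miR-205 arrays, against 4.11, 4.07 and 3.84 on the scramble arrays. The miR-130a values were above and the miR-205 values below every other array, and miR-203 overlapped scramble. NCAPH, a condensin subunit, rose by 0.72 ± 0.17 (adjusted p = 0.00908) in miR-130a cultures and fell by 0.77 ± 0.17 (adjusted p = 0.00515) in miR-205 cultures, and its miR-203 difference was -0.18 ± 0.17 (adjusted p = 0.448). The subunit NCAPG rose in miR-130a cultures at 0.59 ± 0.20 (adjusted p = 0.0455) and fell in miR-205 cultures at -1.07 ± 0.20 (adjusted p = 0.00133), and NCAPD2 fell in miR-203 cultures at -0.64 ± 0.18 (adjusted p = 0.014) and in miR-205 cultures at -0.91 ± 0.18 (adjusted p = 0.00235). The ATPase SMC2 had 0.60 ± 0.17 (adjusted p = 0.0247) in miR-130a, -0.64 ± 0.17 (adjusted p = 0.0119) in miR-203 and -0.97 ± 0.17 (adjusted p = 0.00117) in miR-205 cultures, and its partner SMC4 had 0.66 ± 0.12 (adjusted p = 0.00125), -0.22 ± 0.12 (adjusted p = 0.17) and -0.69 ± 0.12 (adjusted p = 0.000877) in the same order. TOP2A gave 7.42, 7.27 and 7.50 on the miR-130a arrays, 5.73, 6.52 and 6.49 on the miR-203 arrays and 5.19, 5.56 and 5.59 on the miR-205 arrays, against 6.94, 7.09 and 6.75 on the scramble arrays. TOP2A, which untangles DNA, separated all 4 groups, and fell by 0.68 ± 0.18 (adjusted p = 0.0113) in miR-203 and by 1.48 ± 0.18 (adjusted p = 7.63e-05) in miR-205 cultures. MKI67 gave 4.28, 4.45 and 4.60 on the miR-130a arrays, 3.72, 3.54 and 3.74 on the miR-203 arrays and 3.72, 3.66 and 3.51 on the miR-205 arrays, against 4.09, 4.21 and 4.42 on the scramble arrays. MKI67, which encodes the Ki-67 protein that coats mitotic chromosomes, had overlapping miR-203 and miR-205 values, all below scramble. It fell by 0.58 ± 0.11 (adjusted p = 0.00099) in miR-203 and by 0.61 ± 0.11 (adjusted p = 0.000892) in miR-205 cultures. With the probe set of largest variance the miR-205 difference was -1.04 and the miR-203 call was lost (adjusted p = 0.0923). Some alternatives ended the calls in miR-130a cultures of NCAPH (1 of 24), NCAPG (8 of 24) and SMC2 (5 of 24) and in miR-203 cultures of NCAPD2 (3 of 24), SMC2 (2 of 24), TOP2A (2 of 24) and MKI67 (1 of 24).

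The 5 genes of the central spindle and the passenger complex all fell in miR-205 cultures (14.8% of all tested genes). Of these 5, 2 fell in miR-203 cultures (18.9%) and 3 rose in miR-130a cultures (12%). PRC1 gave 7.13, 7.29 and 7.27 on the miR-130a arrays, 5.73, 6.18 and 6.01 on the miR-203 arrays and 4.58, 5.53 and 5.29 on the miR-205 arrays, against 6.58, 6.61 and 6.22 on the scramble arrays. These groups did not overlap. PRC1 fell by 1.33 ± 0.20 (adjusted p = 0.00031) in miR-205 cultures, and its miR-203 difference of -0.49 ± 0.20 (adjusted p = 0.0684) did not pass. ECT2, which activates RhoA at the cell equator, rose by 0.65 ± 0.20 (adjusted p = 0.0324) in miR-130a and fell by 1.04 ± 0.20 (adjusted p = 0.00198) in miR-205 cultures, with -0.11 ± 0.20 (adjusted p = 0.709) in miR-203 cultures. RACGAP1, the partner of KIF23 in centralspindlin, fell in miR-205 cultures at -1.12 ± 0.18 (adjusted p = 0.000531). The passenger proteins BIRC5, known as survivin, and CDCA8, known as borealin, fell in miR-205 cultures at -1.29 ± 0.15 (adjusted p = 4.76e-05) and -1.36 ± 0.18 (adjusted p = 0.000123). They also fell in miR-203 cultures, at -0.42 ± 0.15 (adjusted p = 0.0439) and -0.77 ± 0.18 (adjusted p = 0.00509). Some alternatives ended the calls in miR-130a cultures of PRC1 (3 of 24), ECT2 (6 of 24) and BIRC5 (6 of 24) and in miR-203 cultures of BIRC5 (12 of 24).

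The direct comparison of miR-203 with miR-205 sets the cultures with lower values against each other. Of the 57 members, 40 were higher in miR-203 than in miR-205 cultures and 0 were lower (42 higher and 1 lower at an unadjusted p under 0.05), where 21% of all tested genes were higher and 16.9% lower. The median member difference was 0.60, against 0.033 for all tested genes. In 32 members every miR-203 array lay above every miR-205 array (26.2% of tested genes), and in CKAP2 every miR-203 array lay below. The largest differences were in BUB1B at 1.08 ± 0.13 (adjusted p = 3.27e-05), CDC25B at 1.08 ± 0.13 (adjusted p = 4.08e-05), CCNB2 at 1.06 ± 0.22 (adjusted p = 0.0019) and KIF14 at 0.98 ± 0.15 (adjusted p = 0.000227). All 5 genes of anaphase onset and all 5 of the central spindle were higher in miR-203 cultures, with medians of 0.74 and 0.84, and 6 of 7 kinetochore genes, CENPA excepted. Of the 7 spindle assembly genes 2 were higher, NUSAP1 at 0.67 ± 0.19 (adjusted p = 0.0131) and TACC3 at 0.36 ± 0.12 (adjusted p = 0.0363). The count was 26 without miR-203 replicate 2 and 42 without replicate 1 of both groups or with the replicate number as a block. Under every alternative that tested them 20 members were higher, namely KIF14, KIF2C, KIF4A, KIFC1, CCNB1, CCNB2, CDC25B, AURKB, NEK2, BUB1B, NDC80, ZWINT, SMC4, TOP2A, UBE2C, UBE2S, PTTG1, PRC1, ECT2 and BIRC5.

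For 17 members no difference between miR-203 and miR-205 passed, and 95% intervals are given for 16 of them. KIF15, not above the array median on any miR-205 array, is left without one. MKI67 differed by 0.036 (interval -0.19 to 0.26, adjusted p = 0.823), the smallest difference of the 17. The intervals were wider for AURKA, at 0.19 (interval -0.16 to 0.54, adjusted p = 0.387), CDCA3, at 0.27 (interval -0.12 to 0.66, adjusted p = 0.262), HMMR, at 0.25 (interval -0.11 to 0.62, adjusted p = 0.262), and NCAPD2, at 0.27 (interval -0.13 to 0.66, adjusted p = 0.275). FOXM1 differed by 0.40 (interval -0.0016 to 0.80, adjusted p = 0.109) and TPX2 by 0.38 (interval 0.043 to 0.71, adjusted p = 0.0721). For KIF11 the difference was 0.35 (interval -0.12 to 0.82, adjusted p = 0.233) and for MAD2L1 it was 0.34 (interval -0.28 to 0.96, adjusted p = 0.387). CKAP2 was the 1 member with a negative value, -0.36 (interval -0.65 to -0.068, adjusted p = 0.0509), and it passed under some alternatives. The other intervals were those of DLGAP5, at 0.80 (interval 0.15 to 1.45, adjusted p = 0.0523), SMC2, at 0.34 (interval -0.040 to 0.71, adjusted p = 0.149), CDC25C, at 0.11 (interval -0.18 to 0.40, adjusted p = 0.557), TROAP, at 0.30 (interval -0.047 to 0.64, adjusted p = 0.163), KIF23, at 0.17 (interval -0.035 to 0.37, adjusted p = 0.183), and CENPA, at 0.069 (interval -0.12 to 0.26, adjusted p = 0.57). With the replicate number as a block in the limma fit over all 12 arrays, TPX2 (adjusted p = 0.0239) and DLGAP5 (adjusted p = 0.022) passed as higher in miR-203 cultures. The MKI67 difference depended on the probe set, and was 0.53 (adjusted p = 0.0825) with the probe set of largest variance.

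**Figure D5:**
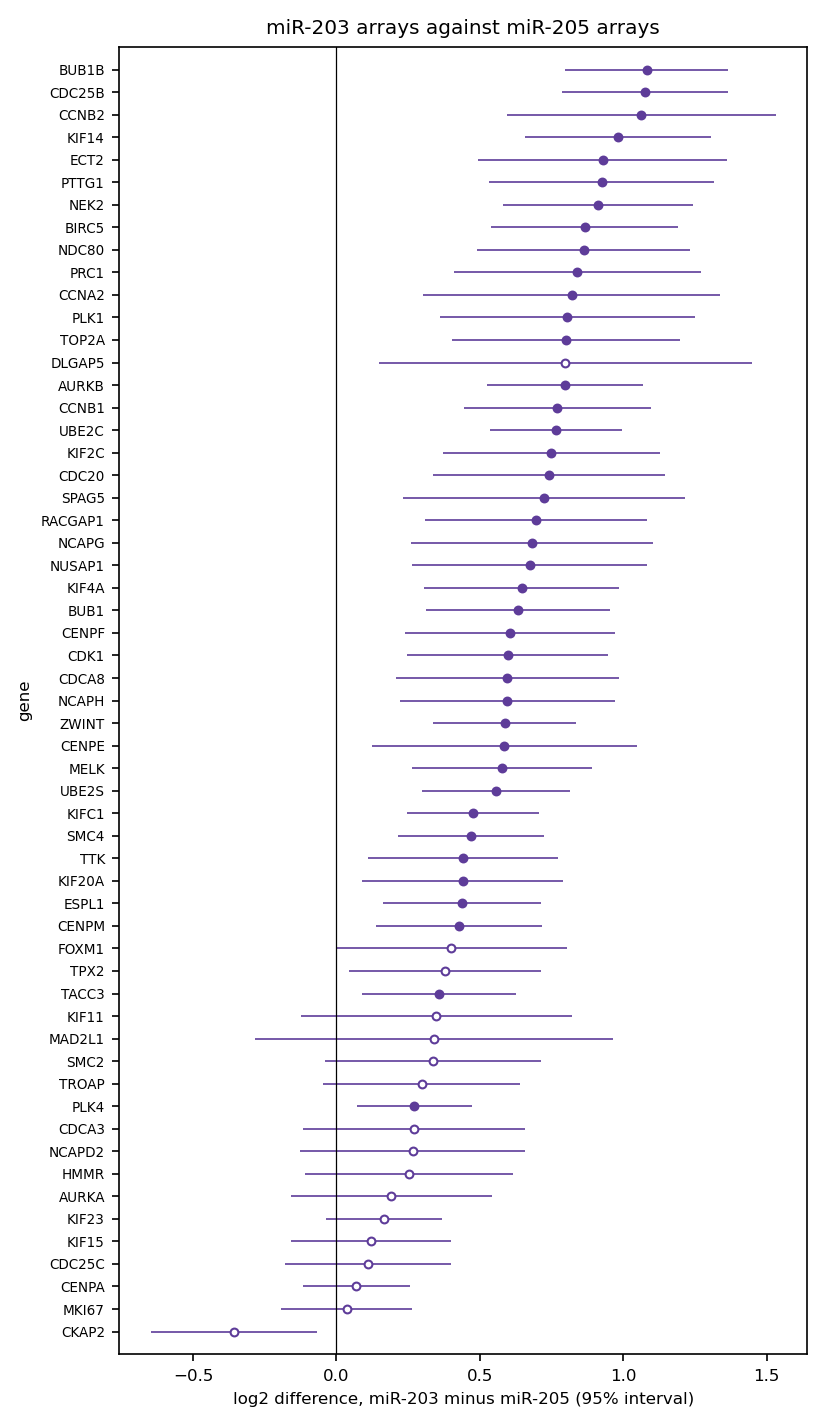
Log2 difference of miR-203 minus miR-205 for each member, sorted by size. Points are differences of means of 3 arrays each, lines are 95% intervals and filled points passed the threshold. The 40 filled points are all above 0, BUB1B is highest at 1.08, and CKAP2 is the 1 gene below 0, at -0.36.

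Nearly all members were higher in miR-130a cultures than in those of either other microRNA. Against miR-203, 55 members were higher in miR-130a cultures and 0 were lower (55 and 0 at an unadjusted p under 0.05), where 21.1% of all tested genes were higher and 20.1% lower. The median was 0.97, against -0.018 for all tested genes, and in 55 members the arrays did not overlap (25.9% of tested genes). CENPA and CENPM did not pass. TPX2 at 1.73 ± 0.16 (adjusted p = 2.41e-06), KIF20A at 1.65 ± 0.16 (adjusted p = 5.11e-06) and HMMR at 1.57 ± 0.17 (adjusted p = 1.03e-05) led. Against miR-205, 55 were higher and 0 lower (55 and 0 at an unadjusted p under 0.05), where 18.2% were higher and 15.4% lower. The median was 1.57, against -0.0076 for all tested genes, 49 members reached 2-fold, and in all 57 every miR-130a array lay above every miR-205 array (25.6% of tested genes). CENPA and CKAP2 did not pass. DLGAP5 at 2.28 ± 0.30 (adjusted p = 6.88e-05), NDC80 at 2.15 ± 0.17 (adjusted p = 9.21e-07), TPX2 at 2.11 ± 0.16 (adjusted p = 4.33e-07), PRC1 at 2.09 ± 0.20 (adjusted p = 4.38e-06) and KIF20A at 2.09 ± 0.16 (adjusted p = 6.97e-07) led. Against miR-205 each of the 55 passed under every alternative that tested it, and against miR-203 so did 49 of the 55, where CCNA2, CDC25B, PLK1, MAD2L1, UBE2S and ECT2 lost the call in at least 1.

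Of the 57 members, 18 had further probe sets on the arrays. Of these further probe sets, 21 were bright enough to test. Their difference from scramble had the sign of the probe set used in 21 of 21 for miR-130a, 20 of 21 for miR-203 and 21 of 21 for miR-205. In a fit over single probe sets 8, 10 and 18 of them passed, with 0 passing in the opposite direction. The share of all probe sets that passed in that fit was not counted.

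A second list of 124 genes with mitotic functions outside the 57 was set beside them, also chosen with earlier results of these data known. Of these, 101 were named on the arrays and 90 tested. Against scramble, 26 rose (28.9%, against 12% of all tested genes) and 4 fell (4.44% against 11.6%) in miR-130a cultures, with a median of 0.23. In miR-203 cultures 14 rose (15.6%, near the 17.3% of all tested genes) and 25 fell (27.8% against 18.9%), with a median of -0.10. In miR-205 cultures 5 rose (5.56% against 11.3%) and 37 fell (41.1% against 14.8%), with a median of -0.16. In miR-130a cultures CDC25A, a CDK phosphatase, rose by 0.94 ± 0.084 (adjusted p = 4.74e-06), RBL1, a pocket protein of the DREAM complex, by 0.91 ± 0.15 (adjusted p = 0.000907) and the lamin LMNB1 by 0.77 ± 0.12 (adjusted p = 0.000543), while TUBG1, the gamma-tubulin of centrosomes, fell by 0.56 ± 0.091 (adjusted p = 0.000682), NEK7 by 0.42 ± 0.11 (adjusted p = 0.0175) and the CDK1 inhibitor kinase PKMYT1 by 0.28 ± 0.087 (adjusted p = 0.0318). In miR-203 cultures the kinetochore genes CENPN and DSN1 fell by 1.11 ± 0.10 (adjusted p = 4.73e-06) and 1.05 ± 0.13 (adjusted p = 4.51e-05), and RBBP4, a histone-binding subunit of DREAM, by 1.01 ± 0.11 (adjusted p = 1.97e-05). There CENPB, which binds centromeric DNA, rose by 0.76 ± 0.13 (adjusted p = 0.000668), the phosphatase subunit PPP2R2A by 0.68 ± 0.11 (adjusted p = 0.000368) and TOP2B by 0.58 ± 0.10 (adjusted p = 0.000818). In miR-205 cultures the kinase PBK fell by 1.45 ± 0.21 (adjusted p = 0.000268), HJURP, the chaperone of CENPA, by 1.35 ± 0.18 (adjusted p = 0.000154) and the abscission protein CEP55 by 1.33 ± 0.22 (adjusted p = 0.000777), and the phosphatase CDC14B rose by 0.71 ± 0.12 (adjusted p = 0.000782), TOP2B by 0.64 ± 0.10 (adjusted p = 0.000544) and CENPB by 0.47 ± 0.13 (adjusted p = 0.0183). Subunits and inhibitors of the anaphase-promoting complex, 9 of them tested, had a median of 0.16 in miR-130a, 0.14 in miR-203 and 0.023 in miR-205 cultures. Between the microRNAs, 29 of the 90 were higher in miR-203 than in miR-205 cultures (32.2% against 21%) and 5 lower (5.56% against 16.9%). WEE1, the kinase that restrains CDK1, was higher there at 0.94 ± 0.080 (adjusted p = 1.42e-06), HJURP at 0.81 ± 0.18 (adjusted p = 0.00389) and OIP5 at 0.80 ± 0.22 (adjusted p = 0.0129). CDC14B was lower at -1.28 ± 0.12 (adjusted p = 3.46e-06), CENPN at -1.24 ± 0.10 (adjusted p = 1.24e-06) and RBBP4 at -0.87 ± 0.11 (adjusted p = 5.41e-05). Of the 90, 44 were higher (48.9% against 21.1%) and 5 lower (5.56% against 20.1%) in miR-130a than in miR-203 cultures. The increases were led by ASPM, a spindle pole protein, at 1.52 ± 0.23 (adjusted p = 0.000196). Against miR-205 cultures, 47 were higher (52.2% against 18.2%) and 5 lower (5.56% against 15.4%) in miR-130a cultures, with HJURP highest at 1.83 ± 0.18 (adjusted p = 6.81e-06).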

How the data were processed

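The authors deposited log2 values for 22277 probe sets on each of the 12 arrays, and the submitters' processing notes name R 2.9.0, RMA and limma without saying what each did. The background method is not given in the sources used here. GEO's platform annotation names the probe sets, and 19070 of them carry 1 gene symbol. Each of the 11963 genes was represented by the probe set with the highest mean over the 12 arrays, and 6821 genes entered the test, those brighter than the median of an array on 3 arrays or more. Group means were fitted on the deposited log2 values with limma 3.58.1 in R 4.3.3 (lmFit and eBayes, 8 residual and 4.84 prior degrees of freedom), two-sided, with Benjamini-Hochberg adjustment over all 6821 genes for each comparison and a threshold of 0.05. The fit was tested on simulated data with independent noise for each gene. Such data cannot show how calls fare when genes move together on an array, as the members did. Precision is limited by the 3 arrays of a group. The p-values rest on 1 spread per gene, pooled within groups over all 12 arrays and moderated by the prior from all tested genes. A gene thus has the same SE in every comparison. A gene that was not above the array median on any array of a group has a bound there, the brighter mean against the higher of array median and own value.

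The members, the role groups, the second list of mitosis genes and the markers were chosen with earlier results of these data known. All members could be named. Every array value was given for a chosen set (CDC20, TPX2, KIF20A, CDK1, CCNB2, PLK1, AURKA, BUB1B, NDC80, NCAPH, TOP2A, FOXM1 and MKI67) and for further members that changed most or went against their role group, and of the second list up to 3 genes per direction and comparison were given. No table column was left unused. Alternatives covered the filter, the choice of probe set, scaling, array weights, the prior variance, the arrays in the fit, genes with equal values, a replicate block and leaving out arrays. Of the 6 pairs of groups, the deviations from group means of same-numbered arrays correlated over 0.1 for all 3 numbers only between miR-203 and miR-205 (r = 0.171, 0.105 and 0.313), so the numbers are taken to pair those groups. This pairing comes from the same data as the tests and not from the labels. Some arrays of different numbers correlated as much. The value was 0.163 for miR-203 replicate 1 with scramble replicate 3 and 0.141 for miR-205 replicate 1 with scramble replicate 3. The median over the 36 pairs of different numbers was -0.012. The values with the replicate number as a block are given for that comparison. The block was fitted over all 12 arrays and is not a paired fit of those groups alone.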

Additional observations from a re-analysis of the deposited data

How the results depend on the processing

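No member reversed its direction while passing in either fit, under any of the 22 to 24 alternatives that tested it. Against scramble, the 25 increases in miR-130a cultures became 12 with no filter on dim genes, 38 with array weights and 40 without miR-203 replicate 1 and miR-205 replicate 1 together, an alternative chosen after seeing the data. Leaving out 1 array gave 14 to 31. With no filter, more genes share the adjustment and the estimate of the prior variance. The 33 decreases in miR-203 cultures became 17 with no filter and 21 to 38 with 1 array left out. In miR-203 against miR-205 cultures, the 40 higher members became 22 with no filter, 23 in a fit of only the 6 arrays compared and 26 to 47 with 1 array left out. There 1 member, CKAP2, became lower with the stricter filter, with centring on the median of the tested genes, with array weights, with a trended and robust prior and without genes with equal values, and 0 to 1 were lower with 1 array left out. The cause of these changes in count was not tested. The 53 decreases in miR-205 cultures ranged from 51 to 54 with 1 array left out, the 55 increases of miR-130a over miR-203 from 52 to 54 and those over miR-205 from 55 to 56.

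Deviations from group means over the tested genes correlated at -0.11 to 0.31 between arrays of the same replicate number (median 0.037, 18 pairs) and at -0.28 to 0.16 between others (36 pairs). The replicate block was fitted over all 12 arrays, so its estimate also drew on the miR-130a and scramble arrays. In miR-203 against miR-205 cultures, whose numbers are taken as pairs, it gave 42 higher members. It added TPX2 and DLGAP5 and changed no other member call there. In the other 5 comparisons no same-numbered arrays correlated over 0.1 across the tested genes. Across the members alone, same-numbered miR-130a and miR-203 arrays correlated at 0.438, 0.292 and 0.274. For miR-203 and miR-205 arrays these values were 0.320, 0.230 and 0.396. Across the members, arrays of different numbers ranged from -0.499 (miR-205 replicate 2 with scramble replicate 3) to 0.610 (miR-205 replicate 1 with scramble replicate 3). Whether the numbers also pair other groups was not tested. With the block, 31 members rose in miR-130a cultures, 37 fell in miR-203 cultures and 53 in miR-205 cultures, against scramble. Over all 6 comparisons, 13 more member calls passed and 2 were lost, those of PLK4 (miR-205 against scramble) and CDC25B (miR-130a against miR-203).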
